A study of Mus musculus with 4 samples.

Results

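The 10 genes described here, Orai1, Orai2, Orai3, Stim1, Stim2, Itpr1, Itpr2, Itpr3, Kcnn4 and Kcna3, encode the channels and sensors that carry the calcium signal of a stimulated T cell, and they are 10 of 50600 genes counted in each library. They were chosen by name, with deposited gene identifiers matched to mouse GENCODE symbols, by a rule that uses no measured value, although earlier results of these data were known when the genes were proposed. Levels are TPM, read pairs divided by the exonic length of each gene and rescaled so that every library has the same sum.

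T cell receptor signalling produces IP3, which opens the IP3 receptors (the Itpr genes) and empties the calcium store of the endoplasmic reticulum. Stim proteins sense the falling store calcium and open Orai channels in the plasma membrane, through which calcium enters. The potassium channels KCa3.1 (Kcnn4, opened by a rise in calcium) and Kv1.3 (Kcna3, opened by depolarisation) let potassium leave, which keeps the membrane potential negative and so maintains the driving force for calcium.

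The samples are primary T cells from mice of strain C57BL/6NJ, sequenced as 4 libraries (biological replicates 1 to 4) of 1 group. Their file headers read Th0 and activated with a time of 16 h, and a protocol for differentiating CD4+ T cells is linked to each. Age is given as unknown and sex as not collected. The labels list 4 biosamples under 1 donor identifier and do not say that they came from separate animals, so p-values measure only the spread between these samples. The assay is labelled total RNA-seq, whereas the name of the linked library protocol is that of a polyA+ method. With no second condition, the questions were at which level each gene was found, how the paralogues compared within a library, and how closely the replicates matched.

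The libraries held 46192242 to 63313389 counted read pairs. All 6 T cell markers and all 3 CD4 markers reached 1 TPM in every library. Of the CD8 pair, Cd8b1 lay at 57.5 TPM and Cd8a at 0.776 TPM. None of 38 markers of other cell types reached 1 TPM in every library, and 13 of them were at 0 in all 4. The B cell markers were the most abundant of these and summed to 9.42, 6.42, 6.78 and 2.45 TPM in replicates 1 to 4. Libraries 1 and 2 stood apart from 3 and 4 in sex-linked genes: Xist lay at 140.6 and 116 TPM in the first pair and at 0.269 and 0.303 TPM in the second, and Ddx3y at 0.0597 and 0.104 against 39.7 and 42.8 TPM. Libraries 1 and 2 thus held RNA of female cells and 3 and 4 RNA of male cells, so the 4 were not all repeats from 1 animal; whether the spread within each pair is technical is not given by the labels. In such bulk libraries, fewer cells that express a gene and less RNA per cell cannot be told apart.

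All 10 genes reached 1 TPM in every library, beside 45.2% of protein-coding genes outside the mitochondrial genome and 22.1% of all genes. All 10 also lay above 5 TPM in every library. Kcnn4, Orai1 and Kcna3 formed the upper end, with means of 107 to 165 TPM. Stim2, Stim1, Itpr3 and Orai3 had means of 24.9 to 30.6 TPM, and Itpr1, Itpr2 and Orai2 means of 6.98 to 12.7 TPM. The median over the 9840 protein-coding genes at 1 TPM or more was 32.7 TPM.

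**Figure D1:**
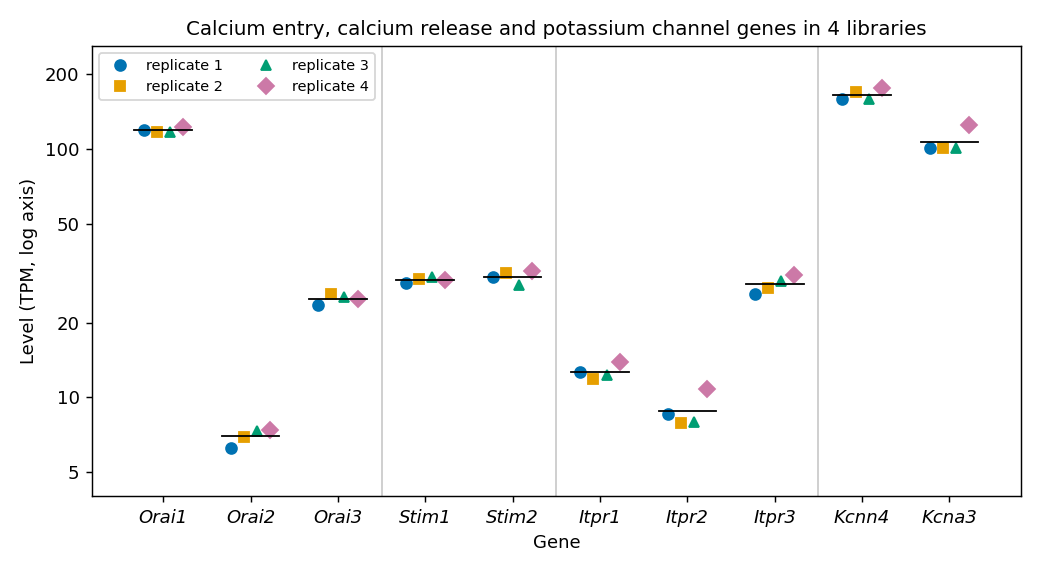
Level of each of the 10 genes (TPM, log axis) in each of the 4 libraries, with the mean as a horizontal line and grey lines between the gene families. Kcnn4 (158 to 175 TPM) lay above the other 9 genes in every library, and Orai2 (6.28 to 7.39 TPM) below them.

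Orai1, the pore of the calcium release-activated channel, was the dominant Orai transcript. Orai1 (ENSMUSG00000049686.14, mm10 chr5:123015074-123030456, plus strand, 2295 exonic bases) lay at 119.5, 117, 118 and 123 TPM in replicates 1 to 4, a mean of 119 ± 2.80 (SD, n = 4). The highest library exceeded the lowest 1.05-fold. Orai1 ranked at position 1671 among the 9840 detected protein-coding genes.

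Orai3, a paralogue that also takes part in store-independent channels, was the next. Orai3 (ENSMUSG00000043964.14, chr7:127769815-127775150, plus strand, 2141 exonic bases) lay at 23.5, 26.0, 25.4 and 24.8 TPM, a mean of 24.9 ± 1.04 (SD, n = 4). Orai2, a paralogue that lowers calcium entry when it joins Orai1 in a channel, was the lowest of the 10 genes per deposited exonic base. Orai2 (ENSMUSG00000039747.11, chr5:136147459-136170713, minus strand, 6077 exonic bases) lay at 6.28, 6.93, 7.30 and 7.39 TPM, a mean of 6.98 ± 0.505 (SD, n = 4). The 3 genes did not overlap in any library.

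Within a library, Orai1 exceeded Orai2 by 17.2 ± 1.29-fold and Orai3 by 4.79 ± 0.275-fold, and Orai2 was 0.280 ± 0.0154 of Orai3 (SD over 4 libraries). On the log2(TPM + 1) scale the differences were 3.92 ± 0.0927 for Orai1 minus Orai2, 2.21 ± 0.0805 for Orai1 minus Orai3 and -1.70 ± 0.0687 for Orai2 minus Orai3. Each had the same direction in 4 of 4 libraries. The exact two-sided sign-flip permutation test gave p = 0.125 for each, the smallest value 4 libraries allow, and 0.143 after Benjamini-Hochberg adjustment over the 8 pairs compared. The design could therefore not reach 0.05 for any pair. With protein-coding transcript lengths the ratios were 13.8 for Orai1 over Orai2, 5.86 for Orai1 over Orai3 and 0.426 for Orai2 over Orai3, in the same order. With coding sequence lengths, Orai1 minus Orai2 was 2.43 log2 and Orai2 minus Orai3 -0.19 log2. As shares of summed Orai TPM, Orai1 held 78.9 ± 0.943%, Orai3 16.5 ± 0.757% and Orai2 4.62 ± 0.289% (SD, n = 4).

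The Orai coding sequences are alike, so the stretches they share are shown with 12 flanking bases on each side, the shared run in capitals (GENCODE M21 transcripts, mm10, 5′ to 3′ on the coding strand). Orai1 and Orai3 share at most 17 bases, in exon 2 of each, at chr5:123029126-123029166 and chr7:127773608-127773648, both on the plus strand. Orai2 and Orai3 share 29 bases across an exon junction, at chr5:136150924-136161510 on the minus strand and chr7:127770193-127773585 on the plus strand, spans that include the intron. This longer run codes for the first membrane helix, which carries the glutamate at the mouth of the pore.
Orai1, run shared with Orai3: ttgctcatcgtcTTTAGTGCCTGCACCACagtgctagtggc
Orai3, run shared with Orai1: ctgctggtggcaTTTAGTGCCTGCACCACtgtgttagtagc
Orai2, run shared with Orai3: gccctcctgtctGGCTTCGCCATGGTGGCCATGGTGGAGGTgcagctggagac
Orai3, run shared with Orai2: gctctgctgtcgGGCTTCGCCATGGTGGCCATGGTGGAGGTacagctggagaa

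Over their aligned coding bases, Orai1 and Orai2 were 72.8% identical, Orai1 and Orai3 73.0%, and Orai2 and Orai3 73.1%. None of the 883 windows of 30 bases in Orai1 was present in Orai2 or Orai3, and none of the 721 windows of Orai2 was present in Orai3. A read of 30 or more coding bases therefore matched at most 1 of the 3 genes without mismatch.

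The store calcium sensors Stim1 and Stim2 lay at near-equal levels per exonic base. Stim1, the sensor that responds to strong store depletion, lay at 28.9, 30.0, 30.4 and 29.7 TPM, a mean of 29.8 ± 0.652 (SD, n = 4; ENSMUSG00000030987.5, chr7:102267806-102437319, plus strand, 10371 exonic bases). Stim2, the sensor that responds to small falls in store calcium, lay at 30.4, 31.6, 28.3 and 32.2 TPM, a mean of 30.6 ± 1.73 (SD, n = 4; ENSMUSG00000039156.19, chr5:53998499-54121057, plus strand, 5133 exonic bases). The levels overlapped, and Stim1 was higher in 1 of 4 libraries, replicate 3.

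The within-library difference of Stim1 minus Stim2 was -0.04 ± 0.0952 log2 (p = 0.5 by the same exact permutation test, and 0.5 after adjustment), less than the spread between libraries. The ratio of read pairs per exonic base was 0.950, 0.950, 1.08 and 0.923 in replicates 1 to 4. Its exact 95% intervals, which cover counting error only, were 0.905 to 0.997, 0.904 to 0.999, 1.03 to 1.13 and 0.876 to 0.972. Each interval excluded 1, in replicate 3 on the other side from the rest, so the libraries differed from each other by more than counting error. Stim1 held 49.3 ± 1.70% of summed Stim TPM (SD, n = 4).

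This balance depended on the length assigned to Stim1. The deposited exonic length, on GENCODE M13, merges the exons of all annotated transcripts. In GENCODE M21, Stim1 has 5 retained-intron transcripts among 9. Its deposited 10371 bases are 2.38 times the 4362 bases of its longest protein-coding transcript, whereas for Stim2 the ratio is 1.04. Which exons make up the extra length was not worked out. With protein-coding transcript lengths throughout, Stim1 lay at 50.9 ± 1.15 TPM and Stim2 at 22.9 ± 1.32 TPM (SD, n = 4), and Stim1 was 2.23-fold higher, in 4 of 4 libraries (1.12 ± 0.0946 log2). Only the length was changed here, so read pairs on exons outside that transcript stayed in the count. The direction of the Stim comparison thus turned with the length, and the Stim1 share of summed Stim TPM was then 68.96%.

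Summed Orai transcripts exceeded summed Stim transcripts in every library. Orai genes together lay at 149, 149.6, 150.2 and 155 TPM and Stim genes at 59.3, 61.6, 58.7 and 61.9 TPM. The within-library ratio was 2.504 ± 0.0547 (1.32 ± 0.0317 log2, n = 4). It was above 1 in 4 of 4 libraries, with an exact permutation p of 0.125, the smallest possible. With protein-coding transcript lengths the ratio was 1.77.

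**Figure D2:**
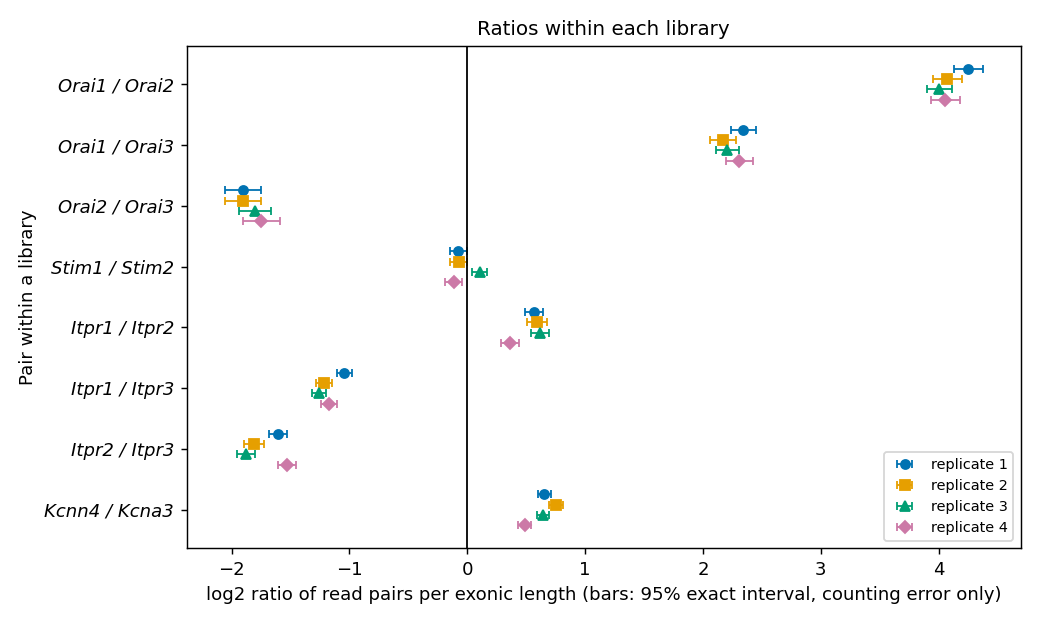
Ratio of read pairs per deposited exonic base between 2 genes of the same library (log2 axis), for 8 pairs and 4 libraries, with exact 95% intervals for counting error only. The pairs other than Stim1 and Stim2 lay on 1 side of 0 in 4 of 4 libraries, and Stim1 and Stim2 lay on both sides.

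Itpr3, the IP3 receptor of lowest IP3 affinity, was the main Itpr transcript per deposited exonic base. Itpr3 (ENSMUSG00000042644.8, chr17:27057304-27122223, plus strand, 8990 exonic bases) lay at 26.1, 27.5, 29.4 and 31.2 TPM, a mean of 28.6 ± 2.21 (SD, n = 4). Itpr1 (ENSMUSG00000030102.11, chr6:108213096-108551109, plus strand, 18319 exonic bases), the form that predominates in neurons, lay at 12.7, 11.9, 12.3 and 13.9 TPM, a mean of 12.7 ± 0.865 (SD, n = 4). The 2 genes did not overlap at these lengths.

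Itpr2, the receptor of highest IP3 affinity, was the lowest of the family. Itpr2 (ENSMUSG00000030287.15, chr6:146108299-146502223, minus strand, 14802 exonic bases) lay at 8.58, 7.85, 7.99 and 10.8 TPM, a mean of 8.80 ± 1.36 (SD, n = 4). Replicate 4 was the high library, 1.28 times the mean of the other 3 in CPM (counts relative to the library total).

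Within a library, Itpr1 was 1.45 ± 0.114 times Itpr2, Itpr1 was 0.445 ± 0.0294 of Itpr3, and Itpr2 was 0.308 ± 0.0349 of Itpr3. On the log2(TPM + 1) scale these differences were 0.49 ± 0.104, -1.11 ± 0.0894 and -1.60 ± 0.146 (SD, n = 4), each with 1 direction in 4 of 4 libraries and an exact permutation p of 0.125 (0.143 adjusted over 8 pairs). Itpr3 held 57.1 ± 1.93%, Itpr1 25.4 ± 0.959% and Itpr2 17.5 ± 1.46% of summed Itpr TPM. With protein-coding transcript lengths (9870 bases for Itpr1), Itpr1 was 0.825 of Itpr3 and 2.13 times Itpr2, in the same order, and the shares were 45.2%, 37.2% and 17.6%. With coding sequence lengths, Itpr1 minus Itpr3 was -0.17 log2. The levels of Itpr1 and Itpr3 then overlapped between libraries, although Itpr3 was higher within 4 of 4.

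The Itpr coding sequences were 69.8% to 71.6% identical over their aligned bases. Itpr2 and Itpr3 held the longest run of identical bases found in any pair, 32 bases, printed in capitals with 12 bases on each side. It lies in exon 48 of Itpr2 (chr6:146187475-146187530, minus strand) and exon 49 of Itpr3 (chr17:27116207-27116262, plus strand). Of the 8074 windows of 30 bases in Itpr2, 3 were present in Itpr3, and none of the Itpr1 or Stim1 windows was present in a paralogue.
Itpr2, run shared with Itpr3: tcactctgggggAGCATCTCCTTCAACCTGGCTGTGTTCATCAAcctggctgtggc
Itpr3, run shared with Itpr2: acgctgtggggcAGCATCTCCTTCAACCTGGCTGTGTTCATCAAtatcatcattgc

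Kcnn4, which encodes the calcium-activated channel KCa3.1, was the highest of the 10 genes. Kcnn4 (ENSMUSG00000054342.8, chr7:24370263-24386690, plus strand, 5115 exonic bases) lay at 158.3, 169.8, 158.2 and 175 TPM, a mean of 165 ± 8.61 (SD, n = 4), position 1180 among detected protein-coding genes. Its 3 paralogues, the SK channels Kcnn1, Kcnn2 and Kcnn3, were near or at 0. Kcnn1 lay at 0.244 TPM, from 68 read pairs over the 4 libraries. Kcnn2 and Kcnn3 had no read pair, which allows up to 0.0305 and 0.0214 TPM in the shallowest library (3 counts, counting error only). Kcnn4 thus held 99.8% to 99.9% of the summed Kcnn TPM of each library.

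Kcna3, which encodes the voltage-gated channel Kv1.3, was at a level near that of Orai1. Kcna3 (ENSMUSG00000047959.4, chr3:107036169-107038070, plus strand, a single exon of 1902 bases) lay at 100.5, 100.8, 101.4 and 125 TPM, a mean of 107 ± 12.1 (SD, n = 4). Replicate 4 stood above the other 3, whose mean was 100.9 ± 0.460 TPM. Of its 7 Kv1 paralogues, Kcna2 lay at 0.325 TPM from 242 read pairs and the other 6 (Kcna1, Kcna4, Kcna5, Kcna6, Kcna7 and Kcna10) had no read pair. Kcna3 held 99.7% of summed Kcna TPM in each library.

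Kcnn4 exceeded Kcna3 by 1.56 ± 0.116-fold per deposited exonic base (SD, n = 4). The difference in log2(TPM + 1) was 0.63 ± 0.108, positive in 4 of 4 libraries, with an exact permutation p of 0.125 and 0.143 after adjustment. The ratio ran from 1.402 in replicate 4 to 1.68 in replicate 2. The exact 95% interval for counting error reached from 1.35 to 1.46 in replicate 4 and from 1.62 to 1.76 in replicate 2. These ranges did not overlap. The size of this difference also depended on length. Kcnn4 has 2 retained-intron transcripts among 5 in GENCODE M21. Its 5115 deposited bases are 2.57 times the 1990 bases of its longest protein-coding transcript, whereas Kcna3 has 1 transcript of 1902 bases. With the longest annotated transcript, 3637 bases for Kcnn4, Kcnn4 lay at 183 ± 9.64 TPM and Kcna3 at 84.3 ± 9.57 TPM (SD, n = 4). The difference in log2(TPM + 1) was then 1.12. With protein-coding transcript lengths Kcnn4 lay at 306 ± 16.5 TPM and Kcna3 at 76.9 ± 8.87 TPM (SD, n = 4), 4.00-fold apart. The Kcnn4 count was unchanged and still held any read pairs on exons outside that transcript.

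**Figure D3:**
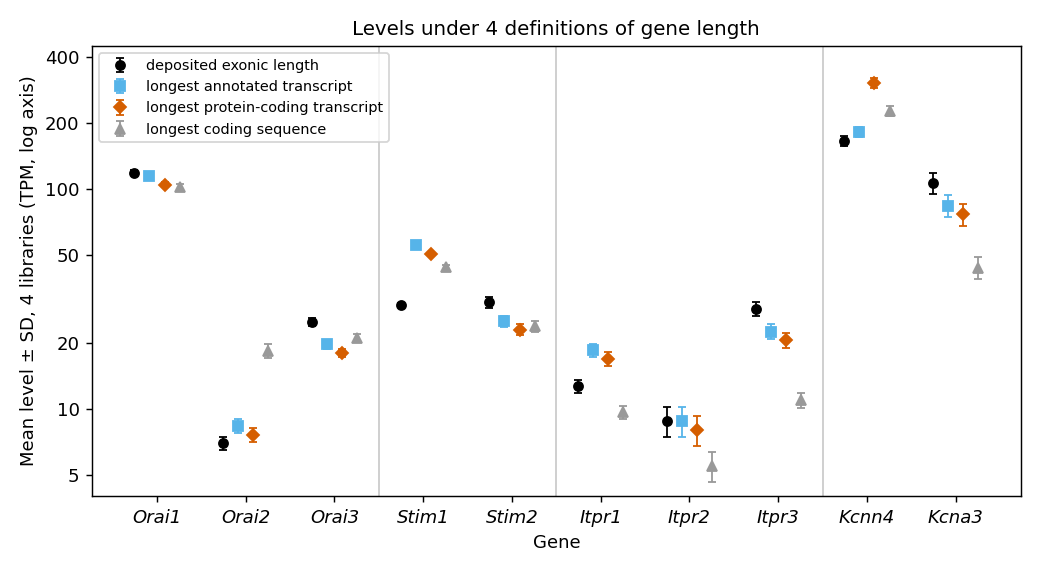
Mean level ± SD over 4 libraries (TPM, log axis) of each gene under 4 definitions of its length, with all other genes rescaled by the same definition. With the longest protein-coding transcript in place of the deposited length Kcnn4 lay at 306 in place of 165 TPM and Stim1 at 50.9 in place of 29.8 TPM, and with the coding sequence Orai2 lay at 18.3 in place of 6.98 TPM.

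Kcnn4 and Kcna3 also differed in the sequence upstream of their annotated starts. Both 250-base windows are printed with each CG dinucleotide in capitals, because CpG content was a property in which they parted (RefSeq, GRCm38.p6, plus strand, chr7:24370013-24370262 for Kcnn4 and chr3:107035912-107036161 for Kcna3).
Kcnn4 upstream: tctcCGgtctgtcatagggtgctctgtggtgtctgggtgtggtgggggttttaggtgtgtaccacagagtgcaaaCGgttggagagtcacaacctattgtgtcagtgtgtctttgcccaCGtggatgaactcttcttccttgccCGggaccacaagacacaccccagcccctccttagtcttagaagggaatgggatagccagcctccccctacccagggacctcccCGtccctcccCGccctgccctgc
Kcna3 upstream: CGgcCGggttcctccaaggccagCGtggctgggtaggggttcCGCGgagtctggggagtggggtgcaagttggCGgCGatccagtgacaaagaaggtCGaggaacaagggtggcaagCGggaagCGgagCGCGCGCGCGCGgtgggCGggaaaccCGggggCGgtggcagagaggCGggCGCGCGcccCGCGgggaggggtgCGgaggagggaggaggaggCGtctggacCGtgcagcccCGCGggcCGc

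The windows also differed in GC content, 58.8% for Kcnn4 and 74.4% for Kcna3. The Kcnn4 window held 6 CpG, an observed over expected ratio of 0.279, and the Kcna3 window 31, a ratio of 1.02. Of 32851 RefSeq promoters cut to the same length, 40.4% had a lower ratio than Kcnn4 and 94.97% a lower ratio than Kcna3, and the median was 0.373. Orai1, at a ratio of 1.00 (94.3% lower), was close to Kcna3, and Orai3, at 0.345 (47.3% lower), close to Kcnn4. The other 5 windows, those of Orai2, Stim1, Stim2, Itpr2 and Itpr3, had ratios from 0.673 to 0.897. The table held 9 of the 10 genes, without Itpr1. On either strand, the NFAT core letters GGAAA were present in the windows of Orai2, Orai3 and Kcna3 and in 55.6% of all promoters. The AP-1 letters TGANTCA were in none of the 9 and in 6.75% of all promoters. Such letter matches describe these windows and no binding was measured.

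In order of level, the 10 genes ran Kcnn4, Orai1, Kcna3, Stim2, Stim1, Itpr3, Orai3, Itpr1, Itpr2 and Orai2. Neighbours were apart, with no overlap and the same order in every library, at 6 of 9 steps. The steps between Orai1 and Kcna3, Stim2 and Stim1, and Stim1 and Itpr3 overlapped, each with the stated order in 3 of 4 libraries. With protein-coding transcript lengths, Orai1 and Kcna3 were apart in 4 of 4 libraries, and Stim1 moved to the fourth place, above Stim2. Stim2 and Itpr3, Orai3 and Itpr1, and Itpr2 and Orai2 then overlapped. With coding sequence lengths, Orai2 lay above Itpr3, Itpr1 and Itpr2, and Stim1 lay above Kcna3 in 3 of 4 libraries.

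Replicate spread was tested with edgeR's quasi-likelihood fit over all 12285 genes with enough counts. After Benjamini-Hochberg adjustment at 0.05, 28 genes (0.228%) varied more between libraries than the trend, and 0 of the 10 channel genes did. The fit held no term for sex, so any difference between the female and the male libraries counted as spread. Itpr2 was the only channel gene with an unadjusted p under 0.05 in edgeR's test (0.0173, adjusted p = 0.791). Of all 12285 genes tested, 666 had an unadjusted p under 0.05. With replicate 4 left out, 0 of the 10 channel genes did. DESeq2's dispersion outliers, 68 genes, also included 0 of the 10. Kcna3 came next, with an adjusted p of 0.950 by edgeR. Orai1 had an SD of 0.0178 log2 CPM. Of the 11366 tested genes with a mean of 1 TPM or more, 1.12% had a smaller SD, and the median was 0.0949. This ranking takes genes of all count levels together. Counting error alone gives a coefficient of variation of 1.52% at the mean count of Orai1, and low spread was not tested. Stim1 had an SD of 0.0375 log2 CPM (8.94% of genes smaller) and Itpr2 0.190 log2 CPM (78.9% smaller).

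**Figure D4:**
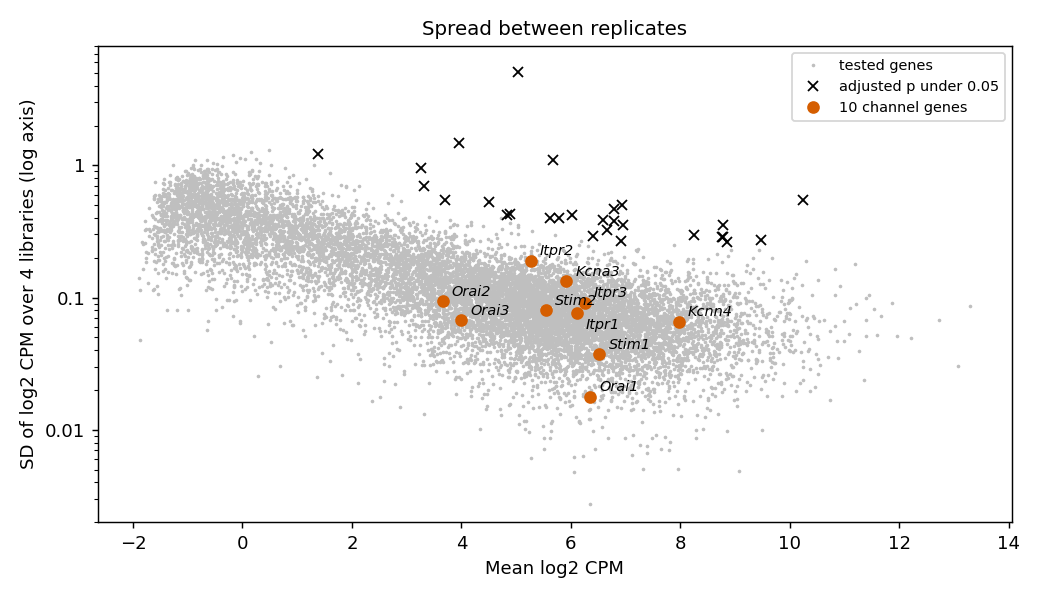
SD of log2 CPM over the 4 libraries (log axis) against mean log2 CPM for 12285 tested genes, with the 28 genes past an adjusted p of 0.05 as crosses and the 10 channel genes labelled. Orai1 lay near the lower edge of the cloud and Itpr2 highest of the 10, and none of them was among the crosses.

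Replicate 4 gave the highest TPM for 8 of the 10 genes, beside 41.4% of the 9840 detected protein-coding genes. In CPM it was highest for 4, Itpr1, Itpr2, Itpr3 and Kcna3, beside 30.1% of those genes. The Itpr genes are among the longest counted. Of the 1076 detected protein-coding genes with 8990 or more exonic bases, the length of Itpr3, 60.9% were highest in replicate 4. Replicate 4 over the mean of the other 3 was 1.09 in CPM for Itpr1, 1.28 for Itpr2 and 1.09 for Itpr3, beside a median of 1.07 over these long genes and 0.997 over all detected protein-coding genes. For Stim1, whose 10371 exonic bases also place it among the long genes, it was 0.967. For the short gene Kcna3 it was 1.20. Replicate 4 also had the highest share of mitochondrial counts, 0.664% against 0.505% to 0.558%, and the lowest summed B cell markers, 2.45 TPM. The part of these in the levels was not tested.

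The wider calcium and potassium machinery was read from 14 lists of 177 genes, of which 81 reached 1 TPM in every library, a share close to the 45.2% of protein-coding genes outside the mitochondrial genome, against which each list's count can be read. Among regulators of store-operated entry, 6 of 10 did, led by Esyt1, a tether between endoplasmic reticulum and plasma membrane, at 191 TPM and Saraf, which inactivates Stim1, at 92.1 TPM. Of the enzymes that make or remove IP3, 9 of 11 did, led by Inpp5b at 93.1 TPM and Plcg1, the phospholipase downstream of the T cell receptor, at 72.6 TPM. Of the IP3 receptor partners 9 of 13 did, led by the store chaperones Calr at 1500.4 TPM and Canx at 487 TPM.

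Other release channels and the calcium-removing machinery were unevenly represented. In the list of ryanodine and other release channels 7 of 11 genes reached 1 TPM in every library, led by Tmbim6 at 278.5 TPM and Tmco1 at 27.4 TPM. Of the pumps and exchangers 5 of 12 did, led by the store pumps Atp2a2 at 334 TPM and Atp2a3 at 208 TPM. Mitochondrial uptake genes were at 1 TPM for 11 of 12, with Vdac1 at 416 TPM and Vdac2 at 195 TPM.

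Other routes of calcium entry were read from a pair of lists. Of the TRP, purinergic and other cation channels, 7 of 24 reached 1 TPM in every library, and the highest were the mechanosensitive channel Piezo1 at 79.4 TPM and Trpm7 at 33.5 TPM. Of 18 voltage-gated calcium channel genes 1 did, the auxiliary subunit Cacnb1 at 2.59 TPM, and the next was Cacnb3 at 1.36 TPM. This count was sensitive to the floor: 3 of the 18 had a mean of 1 TPM or more, and 4 reached 0.5 TPM in every library. Orai1, at 119 TPM, lay above every gene of both lists.

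The other potassium channel genes were read from 4 lists. Of the calcium-activated list 1 of 7 reached 1 TPM in every library, Kcnmb4 at 2.53 TPM, followed by Kcnn1. Of the Kv1 list 1 of 10 did, the beta subunit Kcnab2, a partner of Kv1 channels, at 194 TPM, and the next was Kcnab3 at 0.468 TPM. Among two-pore channels, 2 of 13 did, Kcnk5 at 7.33 TPM and Kcnk6 at 2.97 TPM, and among other potassium channels 2 of 14, led by Kcnq5 at 17.7 TPM and Kcnd1 at 1.30 TPM. Kcnab2, which forms no pore, was the only gene of these 4 lists above Kcna3.

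All 9 regulators of KCa3.1 reached 1 TPM in every library. Of the chloride and volume channels 11 of 13 did, led by Clic1 at 281 TPM and Clic4 at 43.9 TPM. Of the 97 list genes tested for spread, Clic4 was the 1 gene past the threshold (edgeR's adjusted p = 0.0378), beside 0.228% of all genes tested.

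**Figure D5:**
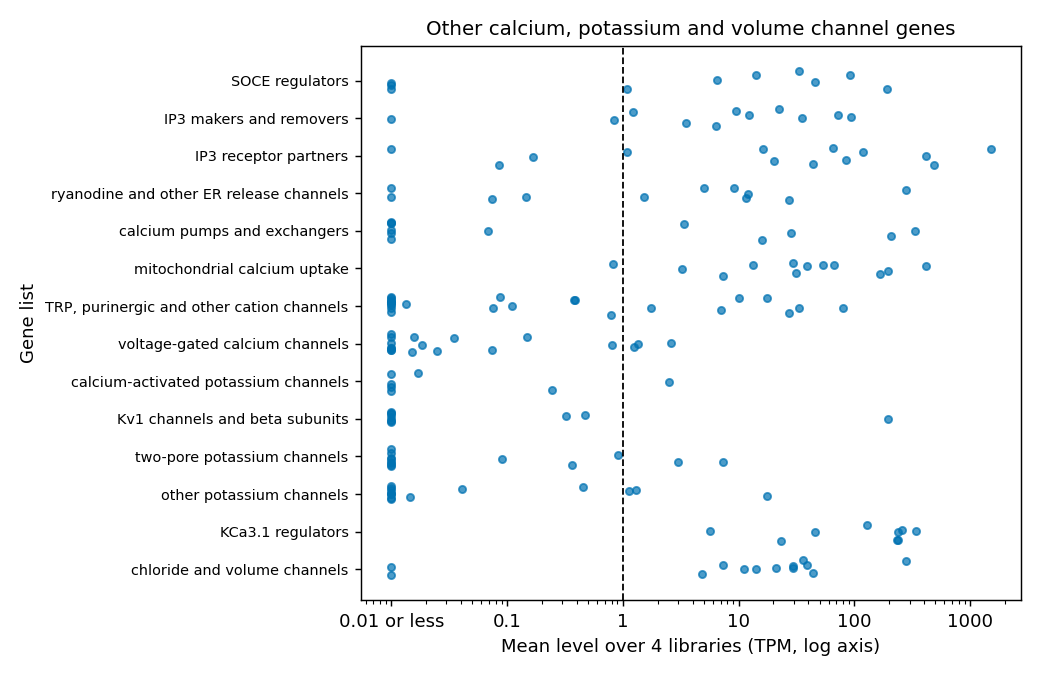
Mean level over 4 libraries (TPM, log axis) of each gene in 14 lists, with values at or under 0.01 TPM drawn at 0.01 and a dashed line at 1 TPM; vertical scatter within a row has no meaning. Points of the voltage-gated calcium and of the potassium channel lists lay mostly left of the line, and those of the KCa3.1 regulators all to its right.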

How the data were processed

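The values the authors deposited are raw counts, in read pairs for each gene. featureCounts 1.4.6-p4 counted pairs with both mates mapped on GENCODE M13 exons, with strand setting 2 (reverse-stranded), from STAR alignments, per the file headers. The build is mm10 per the labels. Which release of STAR was run was not given in the sources used here. No option for multi-mapping reads is recorded in the headers.

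TPM was computed from counts over the deposited exonic length. Symbols came from GENCODE M21, in which 50376 of 50600 identifiers matched. Paralogues were compared within each library on log2(TPM + 1) by an exact two-sided sign-flip permutation test. Single-library ratios have exact conditional binomial intervals at 95%, and a count of 0 allows 3 counts. Intervals cover counting error only, and depth per sample was 46192242 to 63313389 read pairs.

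The spread test used edgeR 4.0.16 under R 4.3.3 (TMM, filterByExpr, an intercept-only robust quasi-likelihood fit, residual dispersion against the trended prior, adjusted p under 0.05), and the script was tested on simulated data. DESeq2 1.42.0 was an alternative. Transcript lengths and coding sequences came from GENCODE M21, and upstream windows from RefSeq. Detection meant at least 1 TPM in all 4 libraries.

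The members and lists were chosen with earlier results of these data known. The genes named are the 10 members, the 2 highest genes of each list (those of 1 list are not reported here), list genes past the spread threshold, and the paralogues of Kcnn4 and Kcna3. Alternatives covered length, pseudocount, scaling, filters, detection floors and each replicate left out. Protein sequences were not used here. Of 178 listed genes, Itprip was not used here. No same-strand gene shared more than 1 exonic base with a member, and no opposite-strand gene overlapping a member had more than 14 read pairs.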

Additional observations from a re-analysis of the deposited data

Results flagged for a closer look

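Kcna3 in replicate 4, at 125.1 TPM, lay far from the other 3 libraries, which ran from 100.5 to 101.4 TPM. The gap to the nearest library was 0.963 of the whole range, above the Dixon limit for a group of 4. Of 27 values checked in this way it was the 1 beyond the limit, and chance alone puts about 1 in 20 groups beyond it.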

How the results depend on the processing

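Of 176 alternatives to 21 comparisons and counts, 147 were scored as the same. This meant that direction and side of the threshold were kept, or that the value stayed within the replicate spread. The order of the 10 genes was scored only by its number of steps apart, 6 or 7. The order itself changed with the length used. Stim1 minus Stim2 reversed, to 1.12 log2 with the longest annotated transcript, 1.12 with the longest protein-coding transcript and 0.87 with the longest coding sequence. The 2 transcript lengths gave equal shares: Orai1 80.4%, Orai2 5.85%, Orai3 13.7%, Stim1 68.96%, Stim2 31.0%, Itpr1 37.2% and Itpr3 45.2%. Shares of counts, which ignore length, were 74.1%, 11.5% and 14.5% for Orai1 to Orai3, 66.3% and 33.7% for Stim1 and Stim2, and 37.5%, 20.97% and 41.5% for Itpr1 to Itpr3. Transcript length equals the deposited length for Orai3, Itpr3 and Kcna3 and is shorter for the other 7 genes. Each length was applied to the same counts, so transcript lengths also divide read pairs on exons outside the transcript. The coding sequence counts reads of untranslated exons over coding bases alone, and put Kcna3 at 44.0 TPM. Genes past the spread threshold numbered 142 with no filter, 15 without the robust option and 68 as DESeq2 outliers; leaving out 1 replicate gave 14 to 27, the lowest without replicate 3, and the cause was not tested. No setting called any of the 10 genes. Lengths and transcripts expressed were not separable from counts per gene, and low counts limit Kcnn1 and Kcna2. Lengths chosen after seeing the data were the protein-coding transcript and the coding sequence. Without 1 replicate, Stim1 minus Stim2 lay between -0.09 and -0.01 log2.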
